A study of Mus musculus with 8 samples.

Results

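The transcripts of protein kinase A (PKA) subunits were followed through 8 sections of embryonic mouse diaphragm measured by 10x Visium FFPE spatial transcriptomics. The members were 5 genes, taken by symbol from the 19465 genes of the probe array: the regulatory subunits Prkar1a, Prkar2a and Prkar2b and the catalytic subunits Prkaca and Prkacb. All 5 passed the filter on low counts in every model. Controls gave 3 sections at embryonic stage E14.5 and 2 sections at E18.5, and each control kept at least 1 CaV1.1 and 1 β-catenin expressing allele, so that heterozygotes may be among them. CaV1.1 KO embryos (CaV1.1 -/-, dysgenic), which lack the voltage sensor of excitation-contraction coupling, gave 1 section at E14.5 and 1 section at E18.5, and some of the crosses used for them also carried floxed β-catenin alleles and the HSA-Cre transgene. β-cat cKO embryos gave 1 section at E18.5. They lose β-catenin through Cre driven by the human skeletal actin (HSA) promoter, so their cells other than muscle fibers keep the gene, and their parents carried CaV1.1 +/-. The labels name no litter, sex or batch, so p-values measure the spread between these sections, and a lone mutant section was assumed to vary as the controls do. In edgeR the spread of each gene is drawn toward that of all genes. Very small p-values from few sections thus do not rest on the spread of that gene alone.

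PKA is a tetramer of 2 regulatory and 2 catalytic subunits. Cyclic AMP, made by adenylyl cyclases and degraded by phosphodiesterases, binds the regulatory subunits and sets the catalytic subunits free. Type I holoenzyme contains RIα (Prkar1a) or RIβ (Prkar1b), type II contains RIIα (Prkar2a) or RIIβ (Prkar2b), and anchoring proteins (AKAPs) tether either type to places in the cell. In skeletal muscle, PKA acts on calcium handling and glycogen metabolism, type I PKA is concentrated at the neuromuscular junction, and PKA there takes part in the stability of acetylcholine receptors.

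Sections held between 14179161 and 82859104 unique molecular identifiers (UMIs, 1 per captured probe molecule), with a median per spot from 15434 to 45284. A spot is 55 µm wide and 100 µm from the next, so it holds several cells, and in such sums fewer cells of a type and less RNA per cell cannot be told apart. Between 491 and 3092 spots per section were called muscle from 9 muscle genes. Those 9 genes together took 21642 to 27362 CPM (UMIs per 1000000 UMIs of the sum) in muscle spots in E14.5 controls and 128417 and 131917 CPM in E18.5 controls, against 16235 CPM in the KO at E14.5, 71384 CPM in the KO at E18.5 and 105199 CPM in the cKO. Levels of the targeted genes did not check the labels. Cacna1s, the gene of CaV1.1, stood at 18.9, 18.3 and 22.8 CPM in E14.5 controls and 16.2 CPM in the KO, and at 61.2 and 63.9 CPM in E18.5 controls and 31.4 CPM in the KO. Ctnnb1, the gene of β-catenin, stood at 75.9 and 71.2 CPM in E18.5 controls and 81.5 CPM in the cKO, and where the probes of either gene lie relative to its mutation is not given in the sources used here.

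In the GRCm38 annotation (mm10), Prkar1a lies at chr11:109649405-109669656 on the plus strand, Prkar2a at chr9:108689314-108750436 (plus), Prkar2b at chr12:31958476-32061296 (minus), Prkaca at chr8:83972993-83996443 (plus) and Prkacb at chr3:146729574-146812990 (minus). The sequences before the starts of Prkar1a and Prkar2a are shown as those of 2 regulatory genes that differed in what follows. Prkar1a had the widest regional difference, in spots rich in endplate genes, and Prkar2a rose with stage. Prkar2b also changed with stage, in the other direction. Each sequence is the 250 bases before a RefSeq start (GRCm38.p6), 5′ to 3′ on the strand of the gene, and lies at chr11:109650699-109650948 for Prkar1a and at chr9:108691893-108692142 for Prkar2a. Capitals mark the cAMP response element TGACGTCA and the core of the N-box, CCGGAA, read on either strand.
Prkar1a: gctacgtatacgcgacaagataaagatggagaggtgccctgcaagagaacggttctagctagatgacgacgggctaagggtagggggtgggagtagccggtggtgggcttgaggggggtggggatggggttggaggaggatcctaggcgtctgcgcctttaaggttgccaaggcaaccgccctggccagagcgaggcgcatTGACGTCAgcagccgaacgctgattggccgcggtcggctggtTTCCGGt
Prkar2a: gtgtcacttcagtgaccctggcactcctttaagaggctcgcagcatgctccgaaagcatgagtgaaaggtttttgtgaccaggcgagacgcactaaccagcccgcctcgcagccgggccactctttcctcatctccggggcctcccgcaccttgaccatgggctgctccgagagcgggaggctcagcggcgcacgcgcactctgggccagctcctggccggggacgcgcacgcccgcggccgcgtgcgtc
Prkar1a has 6 such windows, and the one printed is the one that holds either motif: the response element begins 49 bases before the start, and the N-box core, here in its reverse complement, begins 7 bases before it. The single Prkar2a window holds neither. Of all 32851 windows of this length, 1.55% hold the response element and 12% hold the N-box core. Counted per gene, 1.77% of 27025 genes hold the response element and 13.6% the core in any window. Prkar1a, with 6 windows, had more chances of a match than Prkar2a with 1. The other genes hold the core as well, 2 times in 1 window of Prkacb and 1 time in 1 window each of Prkar2b and Prkaca, and none holds the response element. These are matches of letters and not binding sites.

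Between E14.5 and E18.5 the subunit transcripts of control muscle changed in different directions. Those of RIIα and the catalytic subunit Cα rose, that of RIIβ fell, and those of RIα and Cβ did not pass the test. No protein was measured. Levels here are CPM scaled by the trimmed mean of M-values (TMM) over sums of all muscle spots, and they compare sections, not genes, since each gene is read by its own probes. Prkar2a measured 64.1, 62.7 and 74.6 CPM in E14.5 controls 1, 2 and 3 and 234 and 250 CPM in E18.5 controls 1 and 2. Prkar2b measured 103, 99.2 and 89.2 CPM at E14.5 and 29.1 and 17.6 CPM at E18.5. Prkaca, which encodes the catalytic subunit Cα, measured 385, 299 and 270 CPM at E14.5 and 1015 and 818 CPM at E18.5. In all 3 genes the E14.5 and E18.5 sections did not overlap. The share of all genes without overlap between these sections is not given here, and 65.6% of all genes passed the test of this comparison. Prkar1a measured 936, 781 and 879 CPM at E14.5 and 831 and 854 CPM at E18.5, and the later sections lay inside the range of the earlier ones. Prkacb, which encodes Cβ, measured 126, 129 and 120 CPM at E14.5 and 145 and 143 CPM at E18.5, a small step up without overlap. Both patterns depend on the scaling. Without TMM, Prkar1a fell from 1073, 954 and 1090 CPM to 604 and 625 CPM. Prkacb then fell from 144, 158 and 149 CPM to 105 and 104 CPM.

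In edgeR's quasi-likelihood test with Benjamini-Hochberg adjustment over all genes, 3 of the 5 members passed, a share near that of all genes. Prkar2a was 3.61-fold higher at E18.5 (log2 change 1.85, SE 0.099, adjusted p = 3.7e-06) and Prkaca 2.88-fold higher (1.53, SE 0.17, adjusted p = 1.3e-04), while Prkar2b fell by 2.06 on the log2 scale (SE 0.20, adjusted p = 6.7e-05). Prkacb gave a log2 change of 0.20 (95% interval 0.02 to 0.38, adjusted p = 0.055), and Prkar1a gave -0.04 (95% interval -0.31 to 0.23, adjusted p = 0.79). The 9 muscle genes rose over the same interval, and their part in these changes was not tested. Scaled to those 9 genes, the median of all genes came to -3.19, and the log2 changes of Prkar2a (-1.33) and Prkaca (-1.63) turned negative while they stayed 1.86 and 1.56 above that median.

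**Figure D1:**
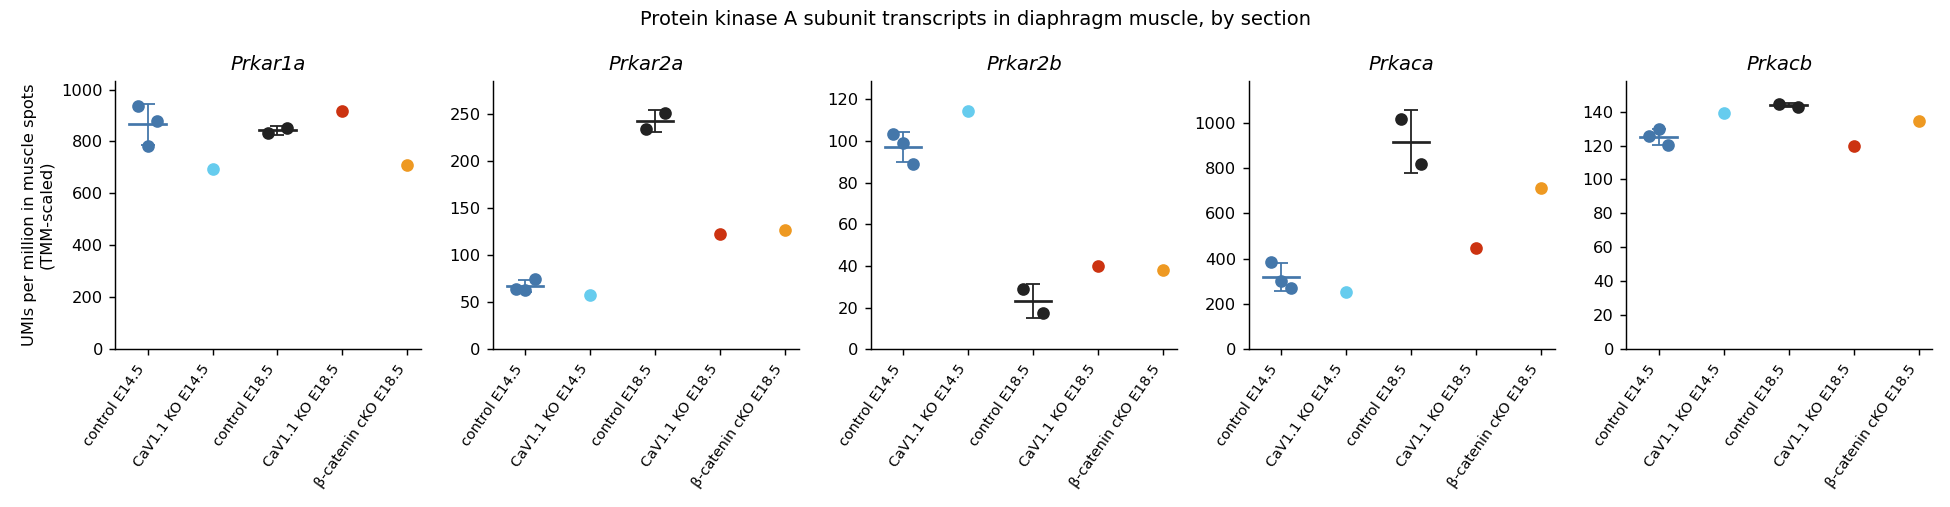
Levels of the 5 subunit transcripts (TMM-scaled CPM, y axis) in the muscle spots of each section, 1 point per section, grouped by genotype and stage on the x axis, with the mean and SD of the controls as lines. Prkar2a and Prkaca sit higher in both E18.5 controls than in all 3 E14.5 controls and Prkar2b sits lower, whereas the points of Prkar1a overlap between the stages, and scaled to the 9 muscle genes the log2 changes of Prkar2a and Prkaca turn negative (-1.33 and -1.63).

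Ratios of 2 members within a section do not depend on its scaling. Prkar1a gave 14.6, 12.5 and 11.8 UMIs per UMI of Prkar2a in muscle of the E14.5 controls and 3.55 and 3.41 in E18.5 controls. On the log2 scale this was 3.69 ± 0.16 (SD, n = 3) against 1.80 ± 0.042 (SD, n = 2), a difference of -1.89, with an exact two-sided permutation p of 0.2, which is the smallest that 3 against 2 sections allow. The mutants at E18.5 lay between the stages, with ratios of 7.48 in the KO and 5.61 in the cKO, and the KO at E14.5 had 12.1, within the range of its controls. This is not a ratio of type I to type II, since it leaves out Prkar2b. That gene gave more UMIs than Prkar2a in all 3 E14.5 controls. Within type II, Prkar2a gave 0.62, 0.63 and 0.84 UMIs per UMI of Prkar2b at E14.5 and 8.03 and 14.3 at E18.5, with 3.09 in the KO and 3.34 in the cKO. Between the catalytic genes, Prkaca gave 3.07, 2.31 and 2.24 UMIs per UMI of Prkacb at E14.5 and 7.01 and 5.73 at E18.5, with 3.75 in the KO and 5.29 in the cKO. None of these ratios overlapped between control stages, and in all 3 the KO and the cKO at E18.5 lay between them. How often ratios of other gene pairs do so is not given here.

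Most subunit transcripts were richer in muscle than in the rest of the section. Each section was split into its muscle spots and its other kept spots, whatever tissue these held, and the 2 sums were compared within sections, on a TMM scale of their own. Prkaca differed most, with 437, 345 and 307 CPM in muscle of the E14.5 controls against 174, 138 and 99.0 CPM in other spots, and 1169 and 959 CPM against 295 and 162 CPM at E18.5. Prkar1a had 1061, 900.2 and 999.6 CPM in muscle and 621, 501 and 510 CPM outside it at E14.5, and 958 and 1001 CPM against 483 and 532 CPM at E18.5. Prkar2a had 72.7, 72.2 and 84.9 CPM in muscle and 58.3, 50.9 and 54.9 CPM outside it at E14.5, and 270 and 294 CPM against 97.6 and 98.0 CPM at E18.5. For these 3 genes muscle exceeded the other spots in each of the 5 control sections. At E14.5, where 37.4% of genes passed, 3 of the 5 members were higher in muscle: Prkaca 2.66-fold, Prkar1a 1.82-fold (both adjusted p = 2.4e-04) and Prkar2a 1.38-fold (adjusted p = 0.0031). At E18.5, where 53.2% passed, the same 3 were higher: Prkaca 4.83-fold and Prkar2a 2.88-fold (both adjusted p = 3.7e-05) and Prkar1a 1.93-fold (adjusted p = 1.3e-04). Prkacb was at a like level in both, with log2 differences of 0.02 (95% interval -0.16 to 0.19) at E14.5 and 0.13 (-0.08 to 0.34) at E18.5.

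The difference of Prkar2b between muscle and other spots turned between sections. It measured 117, 114 and 101 CPM in muscle of the E14.5 controls and 268, 71.0 and 80.5 CPM in their other spots, so muscle was lower than the rest in control 1 and higher in controls 2 and 3. In control 1, 13 spots were rich in adrenal cortex markers (the steroidogenic genes Cyp11a1, Star, Hsd3b1 and Cyp11b1 summed to 6740 CPM there and 108 CPM in the remaining spots), and Prkar2b stood at 1200 CPM in them, from 2455 UMIs. Prkar1a in the same 13 spots was at 813 CPM and Prkaca at 165 CPM. Over all 3 controls the log2 difference was -0.10 (adjusted p = 0.84), and without control 1 it was 0.54 (adjusted p = 0.036, range over the alternatives 0.036 to 0.88). The part of the adrenal spots in this was not tested. Elsewhere Prkar2b reached 203 CPM in 13 liver-rich spots of E14.5 control 2, and in the KO at E14.5 it reached 331 CPM in 12 liver-rich and 339 CPM in 10 erythrocyte-rich spots. Erythrocyte markers in muscle spots ranged from 109 to 3492 CPM over the E14.5 controls, and their part in the Prkar2b level of those spots was not tested.

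Within muscle, Prkar1a was highest in the center, where the motor endplates lie, and this was the widest regional difference of any member. Muscle spots in the top 15% of a score built from 7 endplate genes (Chrna1, Chrnd, Chrng, Musk, Ache, Etv5 and Ufsp1) formed the center, those in the top 15% of a score built from 4 myotendinous genes formed the periphery, and the rest was intermediate. No member entered a score. On these same sections the study had picked Prkar1a at both stages and Prkaca at E14.5 for their correlation with Chrna1, and had named Prkar2a at E18.5 in a cluster of central genes, so their direction here is not independent evidence. On the TMM scale of the 24 regional sums, Prkar1a in center, intermediate and periphery measured 1560, 825 and 644 CPM in E14.5 control 1, 1332, 710 and 572 CPM in control 2, and 1276, 835 and 717 CPM in control 3. At E18.5 it measured 2145, 603 and 521 CPM in control 1 and 2138, 636 and 549 CPM in control 2. The order was the same in every control section, and all 5 center values exceeded all 10 values of the other regions.

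Prkaca in the same order of regions measured 471, 381 and 292 CPM in E14.5 control 1, 373, 296 and 257 CPM in control 2, and 284, 275 and 249 CPM in control 3. At E18.5 it measured 973, 1101 and 776 CPM in control 1 and 837, 882 and 599 CPM in control 2. On this scale the center was the highest region at E14.5 and lay below intermediate muscle at E18.5, a difference that did not pass the test (adjusted p = 0.18) and that turned without TMM scaling in E18.5 control 2 (628 CPM in the center and 614 CPM in intermediate muscle). Prkar2a had center and intermediate levels of 75.0 and 64.5, 76.2 and 61.4, and 83.7 and 74.4 CPM in the 3 E14.5 controls, and of 247 and 244 and of 292 and 257 CPM in the 2 E18.5 controls. Prkar2b ranged from 85.8 to 109 CPM over all regions at E14.5 and from 17.1 to 30.1 CPM at E18.5, and Prkacb ranged from 112 to 133 CPM and from 140 to 153 CPM.

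With section as a block, 3 of the 5 members were higher in the center than in intermediate muscle at E14.5, where 15% of genes (2047 of 14117) passed. Prkar1a was 1.77-fold higher (log2 0.82, SE 0.052, adjusted p = 2.8e-13), Prkaca 1.19-fold (0.25, SE 0.054, adjusted p = 9.6e-04) and Prkar2a 1.18-fold (0.24, SE 0.066, adjusted p = 0.0096), and scaled to the 9 muscle genes, themselves higher in the center, the median of all genes came to -0.31 and Prkaca and Prkar2a were each at -0.03. Without E14.5 control 2 the calls of Prkaca (adjusted p = 0.068, range over the alternatives 1.8e-05 to 0.78) and Prkar2a (0.20, range 0.0027 to 0.99) were lost. At E18.5, where 11.6% passed, Prkar1a alone passed, 3.46-fold higher in the center (log2 1.79, SE 0.063, adjusted p = 4.3e-21). These calls rest on regions set by endplate genes. With the 15% of muscle spots farthest from other spots as the center, which uses no gene of the endplate, the log2 difference of Prkar1a was 0.11 at E14.5 (adjusted p = 0.71) and 0.29 at E18.5 (adjusted p = 0.89), and at E14.5 that of Prkaca was 0.07 (adjusted p = 0.78) and that of Prkar2a -0.01 (adjusted p = 0.99). The log2 differences of the other members at E18.5 were -0.13 for Prkaca (95% interval -0.24 to -0.01), 0.10 for Prkar2a (-0.00 to 0.21), -0.04 for Prkar2b (-0.22 to 0.14) and -0.05 for Prkacb (-0.15 to 0.06).

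**Figure D2:**
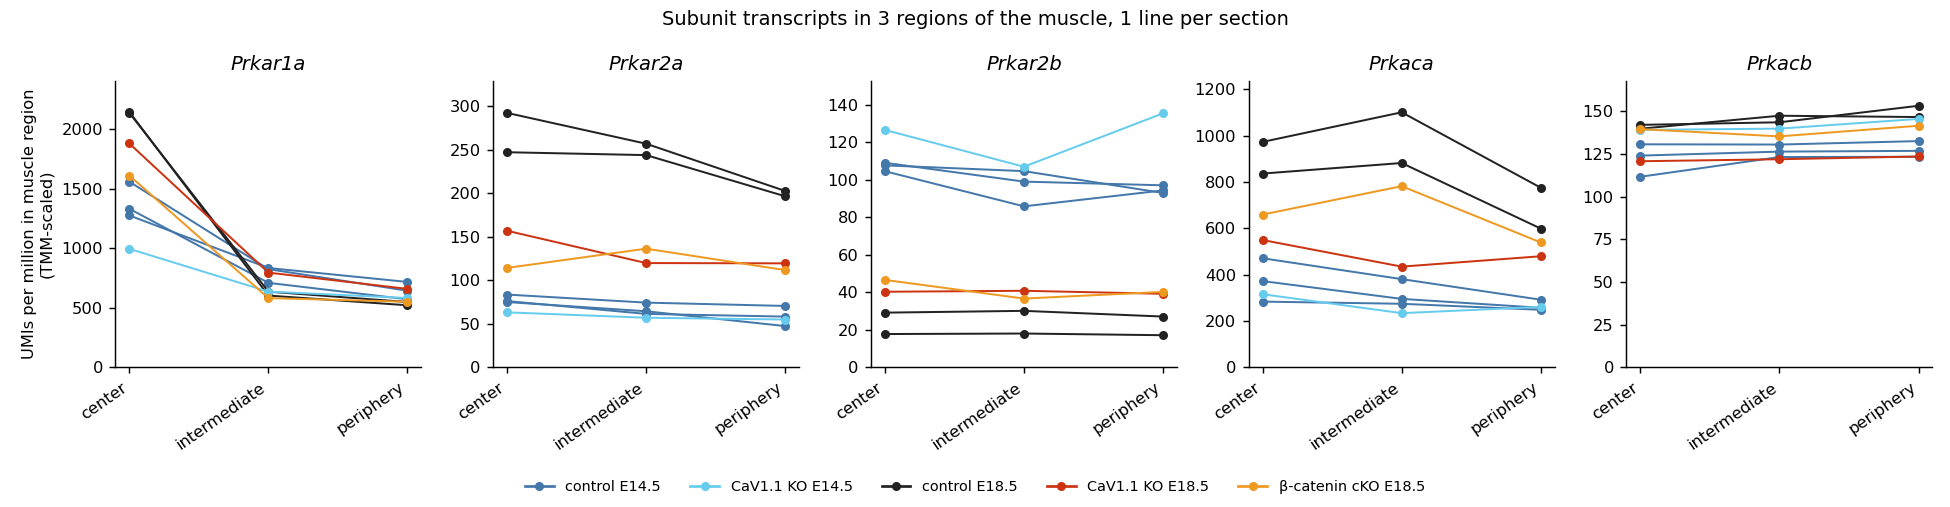
Levels of the 5 subunit transcripts (TMM-scaled CPM, y axis) in the center, intermediate and periphery regions of muscle (x axis), 1 line per section, colored by group. Prkar1a falls from center to periphery in all sections, most steeply in the E18.5 controls (2145 to 521 and 2138 to 549 CPM), and Prkacb is nearly flat.

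The center excess of Prkar1a was larger at E18.5 than at E14.5. Its fold of center over intermediate muscle was 1.89, 1.88 and 1.53 in the E14.5 controls and 3.56 and 3.36 in the E18.5 controls. Of the 5 members, 2 passed the test of the difference between the stages, against 12.1% of all genes: Prkar1a with a log2 difference of 0.97 (SE 0.081, adjusted p = 1.9e-10) and Prkaca with -0.38 (SE 0.079, adjusted p = 8.5e-04), and scaled to the 9 muscle genes the median of all genes came to 0.57 and Prkaca turned to 0.18. With the center set by distance to other spots both calls were lost (Prkar1a 0.18 and Prkaca -0.0015, both with an adjusted p of 1). The fold of Prkaca was 1.24, 1.26 and 1.03 at E14.5 and 0.88 and 0.95 at E18.5. Endplate genes widened over the same interval: with Chrna1, the α subunit of the acetylcholine receptor, left out of the score, its own fold was 1.92, 2.01 and 1.51 at E14.5 and 5.04 and 5.42 at E18.5. That of Ache, acetylcholinesterase, left out in the same way, was 2.67, 2.65 and 1.53 and then 8.45 and 6.63. Of Schwann cell genes, Sox10, a transcription factor of that lineage, was higher in the center of the E18.5 controls (log2 difference 2.12, adjusted p = 1.4e-09), as was Mbp, a myelin protein (0.57, adjusted p = 0.0052), and the difference widened with stage for both (by 1.31, adjusted p = 0.0028, and by 0.86, adjusted p = 0.034). The part of the endplate genes and of Schwann cells in the wider Prkar1a difference was not tested.

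**Figure D3:**
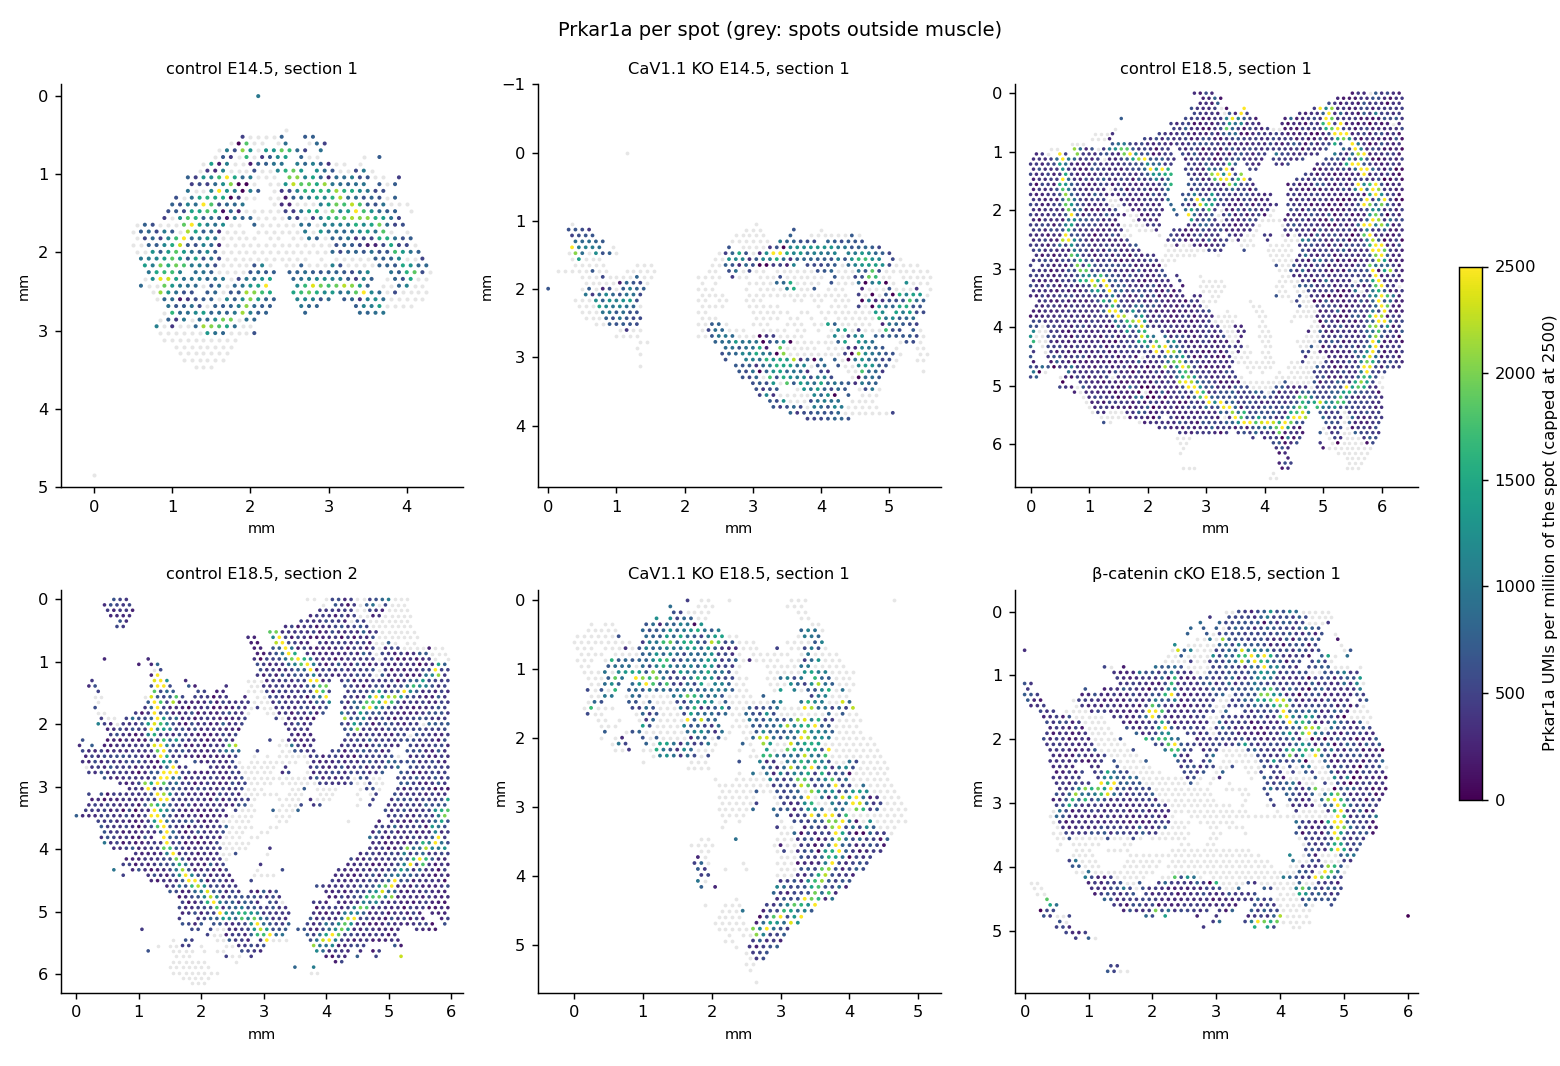
Prkar1a per spot (CPM, color, capped at 2500) at each spot's place in 6 sections, with spots outside muscle in grey. High spots form bands along the middle of the muscle in the E18.5 controls and are less sharply set off in the E14.5 controls. Without TMM scaling, as in the map, center sums measured 1654 and 1606 CPM at E18.5, with 416 and 443 CPM in intermediate muscle. At E14.5 they measured 1750, 1560 and 1543 CPM, with 938, 861 and 1025 CPM in intermediate muscle.

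To follow the decline outward from the center, muscle spots were grouped by their distance to the nearest center spot, in CPM without TMM scaling. Prkar1a in center spots was 1.63, 1.54 and 1.34 times its level in spots 100 µm away in the E14.5 controls and 3.12 and 3.07 times in the E18.5 controls. Against spots at least 400 µm away the center was 2.38, 2.36 and 1.71 times higher at E14.5 and 4.36 and 3.89 times higher at E18.5. Most of the fall at E18.5 thus lay within the first step between spots, with a further 1.40- and 1.27-fold from 100 µm to 400 µm. Center spots were picked by a score of endplate genes, with which Prkar1a correlated, so the size of this step depends on that choice. The share of 15% and the distances were the same for control muscles of 549 to 3092 spots. Prkaca in the center was 1.64, 1.60 and 1.15 times its level at 400 µm or more at E14.5 and 1.05 and 1.11 times at E18.5.

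**Figure D4:**
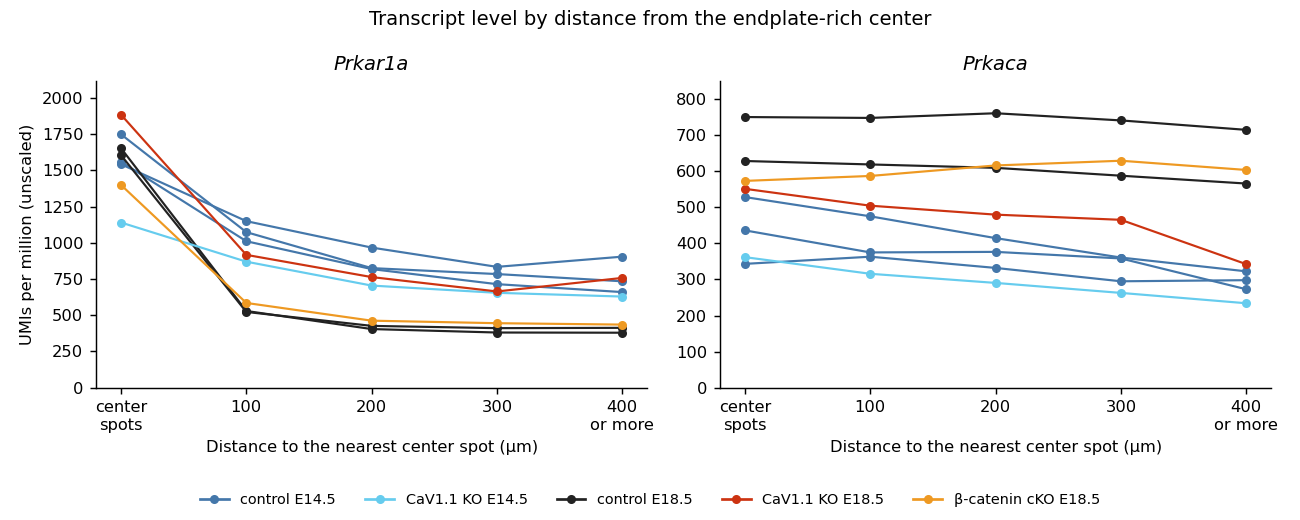
Prkar1a and Prkaca (CPM, y axis) in muscle spots by distance in µm to the nearest center spot (x axis, 0 being the center spots), 1 line per section. Prkar1a drops at the first step in the E18.5 controls (3.12- and 3.07-fold) and more gradually in the E14.5 controls (1.63-, 1.54- and 1.34-fold), and Prkaca changes little with distance in the E18.5 controls.

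At the periphery, toward the myotendinous junctions, Prkar1a and Prkaca were lower than in intermediate muscle at both stages. At E14.5, where 7.97% of genes passed, 2 of the 5 members did: Prkar1a fell by 0.30 on the log2 scale (SE 0.055, adjusted p = 3.5e-04) and Prkaca fell by 0.25 (SE 0.058, adjusted p = 0.0041), though the latter call was lost without E14.5 control 1 (adjusted p = 0.17, range over the alternatives 1.8e-07 to 0.76). At E18.5, where 30.9% passed, 3 did: Prkaca fell by 0.53 (SE 0.058, adjusted p = 6.0e-09), Prkar2a fell by 0.33 (SE 0.054, adjusted p = 1.1e-05) and Prkar1a fell by 0.21 (SE 0.064, adjusted p = 0.010), and scaled to the 9 muscle genes the median of all genes came to 0.40 and Prkar2a (0.11) and Prkar1a (0.23) turned positive. The Prkar1a call at E18.5 was lost without control 1 (adjusted p = 0.098) or without control 2 (0.11), in a range over the alternatives of 9.9e-06 to 0.39. Periphery spots of E18.5 controls also held more fibroblast marker signal (Pdgfra, Col1a1, Dpt and Dcn summed to 8465 and 11779 CPM, against 4017 and 5813 CPM in intermediate muscle), and its part in the lower levels was not tested.

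In CaV1.1 KO muscle at E14.5, 0 of 5 members passed edgeR's quasi-likelihood test, where 2.08% of all genes did, and 0 had an unadjusted p under 0.05, where 2443 of 14832 genes had. DESeq2 likewise called 0. The single KO section measured 694 CPM for Prkar1a, 57.4 CPM for Prkar2a, 114 CPM for Prkar2b, 253 CPM for Prkaca and 139 CPM for Prkacb. The first 2 of these and Prkaca lay below all 3 controls, and Prkar2b and Prkacb above them. The share of all genes that lay outside the range of the controls is not given here. Their log2 differences ran from -0.33 (Prkaca, 95% interval -0.85 to 0.19) to 0.23 (Prkar2b, -0.31 to 0.78).

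In CaV1.1 KO muscle at E18.5, the 2 genes that had risen with development were both lower than in controls. Prkar2a measured 123 CPM in the KO (exact 95% Poisson interval 118 to 128 CPM, which covers counting error only), against 234 and 250 CPM in the controls. Prkaca measured 448 CPM (438 to 458 CPM), against 1015 and 818 CPM. Both KO levels lay between the E14.5 and the E18.5 control levels. The members called were 2 of 5, with 25.7% of all genes called: Prkar2a fell by 0.98 on the log2 scale (SE 0.14, adjusted p = 0.0038) and Prkaca fell by 1.03 (SE 0.24, adjusted p = 0.020), and scaled to the 9 muscle genes, which were lower in the KO, the median of all genes came to 1.40 and Prkar2a (0.42) and Prkaca (0.37) turned positive. Without E18.5 control 1 the call of Prkaca was lost (adjusted p = 0.051, range over the alternatives 1.6e-05 to 0.11). The Schwann cell genes Sox10 (log2 difference 2.42, adjusted p = 0.0034) and Mbp (2.18, adjusted p = 0.0037) were higher in KO muscle than in controls, and neither their part nor that of the muscle genes was tested.

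Prkar2b measured 39.7 CPM in the KO at E18.5 against 29.1 and 17.6 CPM in controls. Its log2 difference of 0.76 (95% interval 0.17 to 1.36) had an adjusted p of 0.064, which became 0.0038 without E18.5 control 1, in a range over the alternatives of 9.7e-17 to 0.30. Prkar1a measured 919 CPM against 831 and 854 CPM (log2 difference 0.13, 95% interval -0.23 to 0.48), and Prkacb 120 CPM against 145 and 143 CPM (-0.27, -0.52 to -0.02, adjusted p = 0.11). In the test of whether the KO effect differed between the stages, 0 of 5 members passed with edgeR, where 6.4% of all genes did. By unadjusted p under 0.05, 2 of 5 did, against 26.3% of all genes (Prkar2a, log2 difference -0.76, adjusted p = 0.055, and Prkacb, -0.42, adjusted p = 0.12), and DESeq2 called 1 of 5, Prkar2a.

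In β-cat cKO muscle at E18.5, compared with the same 2 controls, Prkar2a was again lower. It measured 127 CPM (exact 95% Poisson interval 123 to 130 CPM) against 234 and 250 CPM, and fell by 0.93 on the log2 scale (SE 0.14, adjusted p = 0.0099), the 1 of 5 members called with 8.8% of all genes called. Scaled to the 9 muscle genes it fell by 0.41 (adjusted p = 0.21) where the median of all genes came to 0.52, and with a replicate block its adjusted p was 0.053, in a range over the alternatives of 5.9e-08 to 0.21. Prkaca at 711 CPM lay below both controls (1015 and 818 CPM) and did not pass (log2 difference -0.37, 95% interval -0.91 to 0.18, adjusted p = 0.38). Prkar1a measured 711 CPM against 831 and 854 CPM (-0.24, -0.61 to 0.12), and Prkacb 134 CPM (-0.10, -0.34 to 0.15). Prkar2b at 37.9 CPM lay above both controls (0.70, 0.12 to 1.28, adjusted p = 0.13), and without E18.5 control 1 its adjusted p was 0.0075, in a range of 3.1e-05 to 0.41. Since both mutants were set against the same 2 control sections, their differences are not independent of each other.

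In the mutants Prkar1a was also highest in the center as set by the endplate score. Every section has such spots by construction, wherever in the muscle they lie. The paper reports that in the KO at E18.5 Chrna1 and Musk had spread broadly over muscle spots, so these values do not show a central position. The KO at E14.5 measured 995, 636 and 582 CPM in center, intermediate and periphery, the KO at E18.5 measured 1880, 796 and 659 CPM, and the cKO measured 1611, 582 and 551 CPM. Folds of center over intermediate muscle were 1.56 in the KO at E14.5, 2.36 in the KO at E18.5 and 2.77 in the cKO, against 3.56 and 3.36 in the E18.5 controls. The KO at E18.5 had a higher intermediate level than both controls (603 and 636 CPM) and, on this TMM scale, a lower center level. Without TMM scaling, this KO section measured 1885 CPM in the center, above both controls (1654 and 1606 CPM). Its center excess was smaller than that of the controls by 0.55 on the log2 scale (SE 0.11, adjusted p = 0.0041) and that of Prkaca was larger by 0.47 (SE 0.11, adjusted p = 0.012), the 2 of 5 members called where 3.61% of all genes were. Prkaca in that section measured 550, 435 and 480 CPM in the 3 regions, a fold of 1.26 against 0.88 and 0.95 in the controls, and scaled to the 9 muscle genes the median of all genes came to -0.50 and its difference to -0.04. With regions of 25% in place of 15% the Prkar1a difference was -0.33 (adjusted p = 0.11, range over the alternatives 5.8e-10 to 1), with the center set by distance to other spots it was -0.0031 (adjusted p = 1) and that of Prkaca 0.40 (adjusted p = 0.42), and without E18.5 control 1 the Prkaca call was lost (adjusted p = 0.078, range 2.0e-05 to 1).

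Chrna1, left out of the score, had a center fold of 3.0 in the KO at E18.5 and 3.47 in the cKO, against 5.04 and 5.42 in the controls, and Ache one of 4.55 and 6.11, against 8.45 and 6.63. These folds moved in the same direction as that of Prkar1a, and their part in it was not tested. For the KO at E14.5, 0 of 5 members differed from controls in the center by edgeR's test, with 0.085% of all genes called, and 0 had an unadjusted p under 0.05, against 7.11% of all genes. DESeq2 called 0 as well. In that section center spots were deeper (median 48308.5 UMIs) than intermediate spots (15120.5 UMIs). For the cKO, 0 of 5 passed, with 0.383% of all genes called. There 3 of 5 had an unadjusted p under 0.05, against 7.88% of all genes: Prkar2a (log2 difference -0.36, adjusted p = 0.16), Prkar1a (-0.32, adjusted p = 0.29) and Prkar2b (0.38, adjusted p = 0.37), and DESeq2 called 0.

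The balance of Prkar1a and Prkar2a differed between regions in all sections. The log2 ratio of Prkar1a to Prkar2a UMIs was higher in the center than in intermediate muscle by 0.70, 0.60 and 0.44 in the E14.5 controls and by 1.81 and 1.56 in the E18.5 controls. The mean over the 5 controls was 1.02, with an exact two-sided sign-flip permutation p of 0.0625, the smallest that 5 sections allow. The mutants had the same sign, with 0.50 in the KO at E14.5, 0.85 in the KO at E18.5 and 1.73 in the cKO, so the KO at E18.5 lay between the control stages and the cKO within the range of its controls.

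**Figure D5:**
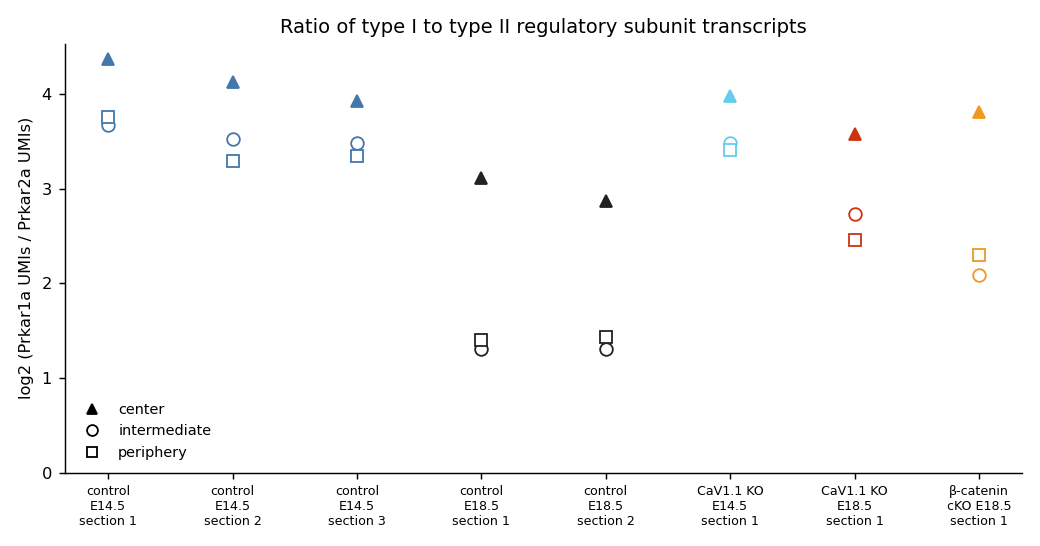
Log2 ratio of Prkar1a to Prkar2a UMIs (y axis) in center, intermediate and periphery of each section (x axis groups sections). Prkar2b, the other type II gene measured, is not part of this ratio. The center lies above intermediate muscle in all 8 sections, by 0.44 to 0.70 in the E14.5 controls and by 1.81 and 1.56 in the E18.5 controls.

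Other genes of the cAMP pathway were read from a list of 81, of which 80 were on the array: receptors coupled to Gs, G protein α subunits, adenylyl cyclases, phosphodiesterases, anchoring proteins, inhibitor peptides, other cAMP effectors, CREB factors and CREB targets. Between E14.5 and E18.5 in control muscle, 38 of 75 tested rose and 14 fell, with a median log2 change of 0.43 against -0.01 over all genes, and 3 rose and 68 fell when scaled to the 9 muscle genes. Of all 14832 genes 4930 rose and 4796 fell, so the share of the list that passed was near that of all genes. Of the 8 Gs-coupled receptor genes tested, 6 rose and 0 fell, and of 16 phosphodiesterases, which degrade cyclic nucleotides, 7 rose and 2 fell. Of 15 anchoring genes, which bind the regulatory subunits, 6 rose and 4 fell. Highest among those that rose were Synm (synemin, an intermediate filament protein), from 1.58 to 1.90 CPM at E14.5 to 51.3 and 40.7 CPM (log2 change 4.76), and Cmya5 (myospryn), from 25.3 to 35.1 CPM to 432 and 430.4 CPM (3.89). Pde4c had the largest log2 change (4.80), but from 2, 4 and 0 UMIs at E14.5, and it stayed under 3 CPM. Akap5 fell from 6.12 to 8.66 CPM to 1.62 and 2.06 CPM (-1.94), and Adcy8 (-2.33) and Gnal (-1.44) fell from levels near 1 CPM.

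In the center at E18.5, 7 of 72 pathway genes were higher and 12 lower (3 and 1 with DESeq2, 24 and 0 when scaled to the 9 muscle genes), with a median log2 difference of -0.05 against -0.04 over all genes. Called were 26.4% of the list and 11.6% of all genes. Calcrl, part of the receptor for calcitonin gene-related peptide, which motor nerves release, measured 147 and 137 CPM in the center and 43.7 and 40.4 CPM in intermediate muscle of the 2 controls (log2 difference 1.75, SE 0.061, adjusted p = 3.2e-21). Akap11, an anchoring protein that binds RIα, measured 112 and 96.9 CPM against 39.6 and 36.1 CPM (1.46, SE 0.070, adjusted p = 2.2e-17). In both genes the regions did not overlap, as for Prkar1a, and the share of all genes for which this holds is not given here. Nr4a2, a CREB target, was higher as well (0.95, adjusted p = 0.012), and Nr4a3 (-1.11) and Cmya5 (-0.40) were lower. Nr4a2 and Nr4a3 were low, with an average log2 CPM of 1.80 and 1.62.

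At E14.5, 12 of 72 pathway genes were higher in the center and 5 lower (11 and 0 with DESeq2, 14 and 3 with relative log expression scaling, 5 and 25 when scaled to the 9 muscle genes), with a median log2 difference of 0.03 against -0.03 over all genes. The largest differences were Popdc3 (0.66) and Popdc2 (0.63), membrane proteins that bind cAMP, and Calcrl (0.66), which measured 31.9, 31.0 and 27.2 CPM in the center and 19.1, 19.5 and 19.6 CPM in intermediate muscle. Adcy7 (-0.82), Pde4a (-0.65) and Adcy4 (-0.49) were lower. Akap11 had 115, 103 and 92.9 CPM in the center against 74.4, 67.7 and 77.5 CPM at this stage. The difference between center and intermediate muscle changed with stage in 18 genes, higher at E18.5 in 4 and lower in 14 (42 and 0 when scaled to the 9 muscle genes), with Adcy7 (1.1), Calcrl (1.1) and Akap11 (0.93) ahead in the first direction and Popdc3 (-0.71), Cmya5 (-0.69) and Pde4dip (-0.69) in the second. Those 18 were 25% of the list, against 12.1% of all genes.

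At the periphery, 1 pathway gene was higher and 6 lower at E14.5 (1 and 3 with DESeq2), and 9 were higher and 24 lower at E18.5 (39 and 0 when scaled to the 9 muscle genes). That was 9.72% of the list against 7.97% of all genes at E14.5, and 45.8% against 30.9% at E18.5. Sphkap, an anchoring protein that binds RI subunits, was higher at E14.5 (1.58), where Rapgef3 (-0.53), Adcy2 (-0.51) and Pde2a (-0.34) were lower. At E18.5 Ptger2 (2.59), Rapgef4 (1.11) and Pde3b (0.90) were higher and Pde4a (-0.70), Pde8b (-0.65) and Adora2a (-0.54) lower. Ptger2 and Rapgef4 were near the floor, with an average log2 CPM of -0.66 and 0.95. Against other spots, muscle was higher in 20 and lower in 12 of 77 pathway genes at E14.5 and higher in 27 and lower in 15 at E18.5, with Cmya5 highest at both stages (log2 differences of 1.87 and 2.47), followed by Popdc2 (1.67) at E14.5 and by Popdc3 and Popdc2 (both 2.27) at E18.5. These shares of the list (41.6% and 54.5%) were near those of all genes (37.4% and 53.2%). Ptger2, a prostaglandin E2 receptor, was lower in muscle at both stages (-2.12 and -2.71), at an average log2 CPM of 0.01.

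In the KO at E14.5, 1 of 75 pathway genes was higher and 3 lower (1 and 9 with DESeq2, 15 and 1 when scaled to the 9 muscle genes): Nr4a3 (1.51) rose, and Cmya5 (-1.80), Fos (-1.24) and Ppargc1a (-1.095) fell. That was 5.33% of the list against 2.08% of all genes, and Nr4a3 was low (average log2 CPM 1.60). In the KO at E18.5, 7 were higher and 17 lower (3 and 19 with DESeq2, 55 and 0 when scaled to the 9 muscle genes). The share called was 32% of the list and 25.7% of all genes. Synm at 11.9 CPM (controls 51.3 and 40.7 CPM), Fos, an activity-regulated CREB target, at 7.42 CPM (23.3 and 29.4 CPM) and Pde4d at 52.2 CPM (152 and 137 CPM) fell most, by 1.95, 1.83 and 1.47 on the log2 scale. Akap5 (1.42), Nr4a2 (0.999) and Adcy8 (2.53) were higher, the last from under 1 CPM. Nr4a2 was low as well, with an average log2 CPM of 1.83. The effect of the KO differed between the stages in 3 genes, Synm (-2.15), Pkia, a peptide inhibitor of the catalytic subunit (-1.01), and Pde4d (-0.99) (26 higher and 0 lower when scaled to the 9 muscle genes). That was 4% of the list, against 6.4% of all genes.

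In the cKO, 1 of 75 pathway genes was higher and 9 lower (9 and 1 when scaled to the 9 muscle genes). Called were 13.3% of the list and 8.8% of all genes. Calcrl fell from 58.0 and 54.4 CPM in controls to 22.7 CPM over all muscle spots (-1.31), Pde4a fell to 9.61 CPM from 24.1 and 25.7 CPM (-1.37), Ppargc1a fell by 1.21, and Sphkap rose by 1.23. In the center of the cKO, Calcrl was the 1 of 72 pathway genes that differed: it measured 34.6 CPM there and 22.0 CPM in intermediate muscle, so that its excess was smaller than in controls by 1.097 on the log2 scale (adjusted p = 2.4e-05), whereas in the KO it measured 122 and 33.2 CPM. In the center of the KO at E18.5, 5 genes had a larger excess than in controls and 0 a smaller one (0 and 20 when scaled to the 9 muscle genes), among them Popdc3 (0.69), Sik1 (0.43) and Pde4dip (0.43). In the center of the KO at E14.5, 0 of 72 differed. Shares called in the center were 1.39% of the list and 0.383% of all genes in the cKO. For the KO they were 6.94% and 3.61% at E18.5, and 0% and 0.085% at E14.5.

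Spots share their section, their depth and their neighbors, so the correlations that follow describe single sections and carry no test. Across muscle spots of each control (549 to 3092 spots), and among 3485 other genes with at least 1 UMI per spot on average, Prkar1a was most like endplate genes: Ufsp1 (mean Pearson r 0.435 over 3 sections), Ache (0.427) and Chrng (0.410) at E14.5, and Ache (0.652 over 2 sections), Ufsp1 (0.644) and Chrna1 (0.636) at E18.5. Prkaca was most like genes of the contractile and glycolytic machinery: Eno3 (0.409), Myh8 (0.380) and Mylpf (0.380) at E14.5, and Mylpf (0.500), Tnnc2 (0.488) and Eno3 (0.481) at E18.5. For Prkar2a, Prkar2b and Prkacb the highest mean r of any gene lay between 0.120 and 0.192, and in sparse counts such values are no finding. Members resembled each other little: Prkar1a and Prkaca had r of 0.21, 0.13 and 0.20 in the E14.5 controls and of -0.00 and 0.03 in the E18.5 controls.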

How the data were processed

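Spatial transcriptomes were measured with 10x Visium FFPE on 5 µm sections of 3 control and 1 CaV1.1 KO diaphragm at E14.5 and of 2 control, 1 CaV1.1 KO and 1 β-cat cKO diaphragm at E18.5. The authors deposited raw UMI counts per gene and spot, made with Space Ranger (per the file headers version 2.0.0 for the first 2 E14.5 controls and the E14.5 KO section, 2.0.1 for the others) on mm10 with mouse probe set version 1.0. Scores of spatial autocorrelation per gene that were deposited with them were not used. Reads of near-identical gene copies were handled by that software and were not examined here.

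Spots with at least 1000 UMIs were kept. Spot barcodes encode places on the slide, and pairs of sections shared 150 to 2153 of them. Muscle spots were split off by Otsu's threshold on the mean log-normalized level (to 10000 UMIs per spot) of Acta1, Actn2, Des, Myl1, Mylpf, Neb, Ryr1, Tnnt3 and Ttn, and regions were set as the report describes, with Col22a1, Ankrd1, Rxrg and Uchl1 marking the periphery. Spots are not replicates, so counts were summed per section (8 sums of muscle), per region (24 sums) and per compartment, and fitted across all genes with edgeR 4.0.16 (R 4.3.3): TMM factors, filterByExpr, glmQLFit and glmQLFTest, Benjamini-Hochberg adjustment and a threshold of 0.05. The fits of regions and compartments had section as a block, because these sums share an embryo: deviations of the regions of a section from the group mean correlated at 0.29 to 0.62 at E14.5 and at 0.73 to 0.81 at E18.5, where 2 sections mirror each other by construction. The standard error follows from the F statistic. The study itself tested spots with Wilcoxon tests. The code was tested on simulated counts with known changes.

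Alternatives were DESeq2 1.42.0, other scalings, filters, regions and blocks, and leaving out each control section. In every comparison the genes named are the 5 members and up to 3 called pathway genes per direction with the largest change, of which some are given, and for each member the 3 genes most correlated with it. The members and the gene lists were chosen with earlier results of these data known. Promoter windows are from RefSeq (GRCm38.p6) and gene positions from GENCODE. Images were not analysed here, and some marker and pathway genes are not reported here.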

Additional observations from a re-analysis of the deposited data

Results flagged for a closer look

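The difference of Prkar1a between center and intermediate muscle was unequal between the control stages, larger at E18.5 by 0.97 on the log2 scale (adjusted p = 1.9e-10 in the edgeR interaction test). That of Prkaca changed the other way, by -0.38 (adjusted p = 8.5e-04). Of all genes, 12.1% passed this test. With the center set by distance to other spots, neither gene was called (0.18 for Prkar1a and -0.0015 for Prkaca). Scaled to the 9 muscle genes, the value of Prkaca turned to 0.18, where the median of all genes came to 0.57. At E18.5 the same regional difference was unequal between genotypes: relative to the controls, that of the CaV1.1 KO section was -0.55 for Prkar1a (adjusted p = 0.0041) and 0.47 for Prkaca (adjusted p = 0.012), with 1 KO section and no replicate of it. With the center set by distance to other spots, neither KO difference was called (-0.0031 for Prkar1a and 0.40 for Prkaca). The KO call of Prkar1a was also lost with wider regions. Scaled to the 9 muscle genes, the KO difference of Prkaca came to -0.04, where the median of all genes came to -0.50. No group held 4 or more sections, so outlying sections could not be looked for within groups.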

How the results depend on the processing

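Of 1060 values of members under an alternative, 911 kept their direction and side of the threshold, 32 lost the call, 34 gained one and 83 turned direction, 20 of them with a call under either setting. Without scaling to the 9 muscle genes it was 895, 30, 22, 48 and 2 of 995. That scaling moved the median of all genes, as given beside the results, and turned 35 of 65 log2 values. With a call under either setting these were E18.5 against E14.5 for Prkar2a (-1.33), Prkaca (-1.63) and Prkacb (-2.98), the KO at E18.5 for Prkar2a (0.42), Prkaca (0.37) and Prkacb (1.14), the center at E14.5 for Prkar2a (-0.033) and Prkaca (-0.028), the center at E18.5 for Prkacb (0.23), its stage difference for Prkar2a (0.42), Prkar2b (0.38), Prkaca (0.18) and Prkacb (0.56), the periphery at E18.5 for Prkar1a (0.23), Prkar2a (0.11) and Prkar2b (0.31), and the center of the KO against control at E18.5 for Prkaca (-0.043) and Prkacb (-0.48). Called under neither setting were the KO at E14.5 for Prkar1a (0.24), Prkar2a (0.32) and Prkaca (0.24), the cKO for Prkar1a (0.28), Prkaca (0.16) and Prkacb (0.43), the KO effect between stages for Prkar2a (0.10), Prkaca (0.13) and Prkacb (0.43), the center for Prkar2b at E14.5 (-0.13) and at E18.5 (0.25) and for Prkaca at E18.5 (0.15), the periphery at E14.5 for Prkacb (-0.10), and the center of the KO against control for Prkar2b (-0.08) and Prkacb (-0.14) at E14.5 and for Prkar2a (-0.22) and Prkar2b (-0.50) at E18.5. It called 5 members for the stage (3 in the report), 2 for the KO at E14.5 (0), 2 for the KO effect between stages (0), 3 for the center at E18.5 (1) and 4 for its stage difference (2). The 2 other turned values with a call were Prkar2a in the center at E14.5 with regions set by distance to other spots (-0.012) and Prkar2b in muscle against other spots at E14.5 without control 1 (0.54, range over the controls left out -0.54 to 0.54). Of the 46 turned values with a call under neither setting, all with an adjusted p of at least 0.67, 34 lay within 0.1 of 0 on the log2 scale under both. The other 12 were, with regions set by distance to other spots, Prkar1a (0.31) and Prkaca (0.06) in the center of the cKO against control, Prkar2a (0.14), Prkaca (-0.08) and Prkacb (-0.13) in that of the KO at E14.5, Prkacb (-0.17) in that of the KO at E18.5, Prkaca in the center at E18.5 (0.07) and Prkar2a in its stage difference (0.14), then Prkar2b in the KO at E14.5 with all kept spots (-0.01) or a replicate block (-0.03), and, in muscle against other spots at E18.5, Prkacb without control 1 (-0.06) and Prkar2b without control 2 (0.06).

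With regions set by distance to other spots, which uses no endplate gene, 0 members were called in the center at E14.5 (3 in the report), at E18.5 (1), in its stage difference (2) and in the KO against control at E18.5 (2). With no replicate block (section left out of the fit), members called were 1 in the center at E14.5, 1 in its stage difference, 0 at the periphery at either stage (2 and 3) and 0 in the center of the KO at E18.5. Without a filter on low counts, 1 was called for the KO effect between stages, 2 in the center at E18.5 and 1 in the center of the cKO (0). DESeq2 called 1 for the KO effect between stages and 1 at the periphery at E14.5. Regions of 10% called 2 in the center at E18.5 and 1 in the center of the KO at E18.5, as did regions of 25% (1) in the latter, a center by Chrna1, Chrnd and Chrng called 1 in the center of the cKO, and the upper part of muscle spots by score called 2 for the cKO (1). Leaving out each control in turn, members called ranged from 1 to 2 for the cKO, 0 to 1 for the KO effect between stages, 1 to 3 for the center at E14.5, 1 to 2 for the periphery at E14.5 and 1 to 2 for the center of the KO at E18.5. The causes were not tested. Counts over all genes, which form the background, moved more over the same alternatives: 0 to 4939 (308 under the settings used above) for the KO at E14.5, 2863 to 12468 (3819) for the KO at E18.5, 81 to 3886 (1305) for the cKO, 0 to 4715 (949) for the KO effect between stages, 9 to 7770 (2047) and 26 to 5072 (1633) for the center at E14.5 and E18.5, 18 to 9669 (1710) for its stage difference, 47 to 2162 (1125) and 983 to 8869 (4359) for the periphery, 0 to 50 (12), 0 to 4103 (509) and 0 to 172 (54) for the center in both KO stages (E14.5, then E18.5) and the cKO, and 3110 to 6056 (5790) for muscle against other spots at E14.5.

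The replicate number as a block took the cKO from 1 to 0 members called (Prkar2a, adjusted p = 0.053) and changed no other call of a member. Sections of E14.5 and E18.5 share only a number: deviations of same-numbered sections correlated at -0.18 and -0.23. Depth and 1 section per mutant limit what could be detected.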
